A study of Mus musculus with 14 samples.

Results

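Mouse neural stem cells that carried the ZFTA-RELA fusion and were treated with the EZH2 inhibitor GSK343 were compared with empty-vector neural stem cells, to ask how much of the fusion cells' difference in open chromatin was still there after inhibition. The comparison uses 4 of the 14 libraries of the series, chosen by their titles: 2 labelled ZR_GSK343 here and 2 labelled EV. Both groups were mouse neural stem cells (mNSC) from brain, assayed by ATAC-seq on 50000 cells per library. The ZR_GSK343 cells were ZFTA-RELA mNSC given 10 µM GSK343 for 96 h. The EV cells were Empty Vector mNSC with no inhibitor, of which replicate 1 carries a DMSO vehicle label and replicate 2 a PBS vehicle label. The stated medium, Neurobasal with EGF and FGF, is described for the fusion cells. The labels leave out the strain, the sex, how the fusion was introduced and whether a line is 1 clone, and no label says that the 2 libraries of a group came from separate cultures.

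The ZR_GSK343 and EV cells differ in both the fusion and the drug, which cannot be told apart from these 4 libraries alone. For that reason 4 further libraries were looked up and took no part in the calls: 2 of untreated fusion cells (ZR, with a PBS vehicle label) and 2 of fusion cells whose titles name DMSO (ZR_DMSO), although their treatment label reads PBS.

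In ATAC-seq the Tn5 transposase cuts accessible DNA, so that peaks mark open promoters and enhancers. ZFTA-RELA, the driver fusion of supratentorial ependymoma, couples the zinc fingers of ZFTA to RELA, a subunit of the transcription factor NF-kB. EZH2 is the catalytic subunit of Polycomb repressive complex 2, which places the repressive mark H3K27me3 on the genes of developmental regulators, and GSK343 blocks that activity. SOX1 and SOX2 are transcription factors of neural progenitors, POU3F2 is a POU factor that acts beside SOX2 in them, and OLIG2 is a factor of both progenitors and the oligodendrocyte lineage.

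Each library came as a peak list, and all 4 lists were shortened to their 18324 strongest peaks on chromosomes 1 to 19 by the authors' −log10 q, which is the whole list of ZR_GSK343 replicate 1. Overlapping peaks were merged into 33107 regions. A region was called gained where both ZR_GSK343 lists and neither EV list had a peak, lost where both EV lists and neither ZR_GSK343 list had one, and mixed where the libraries of a group differed. These words describe presence in equal-length lists and carry no test, because 2 libraries against 2 allow no two-sided exact permutation p under 0.33. The position of a peak in its list is given as a percentile, with 100 the strongest.

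The lists of the treated cells were less alike than those of the EV cells. They held 18324 and 55369 peaks in ZR_GSK343 replicates 1 and 2, against 34015 and 42242 peaks in EV replicates 1 and 2, a ratio of means of 0.966 (two-sided exact permutation test, p = 1, n = 2 each). At equal length the peaks covered 8.14 and 14.1 Mb in ZR_GSK343, against 15.2 and 16.6 Mb in EV. By shared bases the 2 ZR_GSK343 lists had a Jaccard index of 0.412, against 0.688 for the 2 EV lists. ZR_GSK343 replicate 2 shared more with EV (0.431 and 0.44) and with untreated ZR (0.474 and 0.486) than with replicate 1, which itself shared less with EV (0.286 and 0.276) and with ZR (0.266 and 0.278). ZR_GSK343 replicate 1 alone accounted for 5707 regions with a peak in no other of the 4 lists, so calls were required in both replicates. Of the 11 markers fixed for neural stem cells, 5 and 5 had a gene-end peak in ZR_GSK343, against 7 and 6 in EV. The markers Nes, Pax6 and Prom1 had none in any of the 4 equal-length lists. The longer deposited EV lists held a Nes peak, and the deposited list of ZR_GSK343 replicate 2 held a Prom1 peak that neither EV list had.

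The following 6 promoters are shown as examples of both calls, namely 4 genes of neural progenitors and of the oligodendrocyte lineage that lost their promoter peak and 2 developmental genes that gained one. Each line gives the 250 bases before the transcription start, 5′ to 3′ on the gene's strand, from RefSeq (GRCm38.p6, the coordinates of mm10). Capitals mark the SOX motif ACAANG and the GC box GGGCGG, each searched on both strands.
Sox2 (lost; chr3:34649745-34649994, plus strand): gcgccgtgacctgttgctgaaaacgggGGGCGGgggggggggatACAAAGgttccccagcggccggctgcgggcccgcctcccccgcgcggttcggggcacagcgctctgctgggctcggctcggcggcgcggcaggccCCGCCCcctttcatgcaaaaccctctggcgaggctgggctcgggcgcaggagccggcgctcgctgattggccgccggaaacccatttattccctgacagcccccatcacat
Sox1 (lost; chr8:12395269-12395518, plus strand): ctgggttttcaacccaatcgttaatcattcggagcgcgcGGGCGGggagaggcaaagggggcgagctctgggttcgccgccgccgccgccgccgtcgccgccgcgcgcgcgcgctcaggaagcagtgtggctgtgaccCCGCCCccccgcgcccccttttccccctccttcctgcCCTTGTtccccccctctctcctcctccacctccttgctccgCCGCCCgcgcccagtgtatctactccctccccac
Pou3f2 (lost; chr4:22488367-22488616, minus strand): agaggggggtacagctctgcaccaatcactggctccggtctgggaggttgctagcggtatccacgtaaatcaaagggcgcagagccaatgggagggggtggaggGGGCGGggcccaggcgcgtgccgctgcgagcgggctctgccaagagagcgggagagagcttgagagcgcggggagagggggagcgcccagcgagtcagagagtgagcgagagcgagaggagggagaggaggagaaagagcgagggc
Olig2 (lost; chr16:91225300-91225549, plus strand): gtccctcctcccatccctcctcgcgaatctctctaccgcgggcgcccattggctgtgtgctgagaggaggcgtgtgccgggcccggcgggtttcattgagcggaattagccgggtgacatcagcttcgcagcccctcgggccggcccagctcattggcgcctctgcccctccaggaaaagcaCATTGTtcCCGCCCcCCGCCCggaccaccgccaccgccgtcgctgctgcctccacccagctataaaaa
Six2 (gained; chr17:85688255-85688504, minus strand): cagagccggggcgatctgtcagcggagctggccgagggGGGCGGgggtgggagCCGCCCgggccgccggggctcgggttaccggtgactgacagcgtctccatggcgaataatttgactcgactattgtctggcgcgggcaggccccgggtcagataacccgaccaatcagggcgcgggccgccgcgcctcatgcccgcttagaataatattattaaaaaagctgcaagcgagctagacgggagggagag
Twist2 (gained; chr1:91801211-91801460, plus strand): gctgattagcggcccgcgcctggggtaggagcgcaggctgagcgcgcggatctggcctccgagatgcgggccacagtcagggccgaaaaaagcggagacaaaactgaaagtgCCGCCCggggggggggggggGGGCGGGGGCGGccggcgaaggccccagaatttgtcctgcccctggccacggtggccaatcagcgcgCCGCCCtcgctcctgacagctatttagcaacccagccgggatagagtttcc
A SOX motif stood in the Sox2 promoter 206 bases, in the Sox1 promoter 75 bases and in the Olig2 promoter 68 bases before the start, counted to the first base of the match, and none stood in these 250 bases of Pou3f2, Six2 or Twist2. Every one of the 6 held at least 1 GC box. These matches describe the sequence and are not shown to be binding sites.

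Several neural stem genes, Pou3f2, Sox2 and Sox1 among them, were without their empty-vector peak in both libraries of EZH2-inhibited fusion cells. Of 30 genes in the neural stem list, 28 lay on the chromosomes used and 25 had a peak within 1 kb of either gene end in at least 1 of the 4 lists. Among these 25, the gene-end peak was lost at 8 (32%), gained at 1 (4%), present in all 4 lists at 11 and mixed at 5. The list was chosen with earlier results of these data known, so these shares are a description and not an independent check. Over every protein-coding gene with such a peak, 378 of 10878 (3.47%) lost it, 600 (5.52%) gained it and 7509 (69%) had it in all 4 lists; with ZR_GSK343 replicate 1 as the sole treated library 1078 genes lost it, and with replicate 2 alone at the same length 1043 gained it. The order of the 2 counts depends on list length: in the deposited lists 394 genes lost and 245 gained the peak, and at a −log10 q of at least 5, 438 lost and 212 gained it. At 33 of the 378 lost and 35 of the 600 gained genes a peak behind the call lay in a merged region with another call, since a neighbouring peak can end just outside the window. Among the 8 genes were Pou3f2, Sox2, Sox1, Ptprz1, Tnc, Hopx and Slc1a3, of which Pou3f2 and Tnc lie on chromosome 4. Leaving out 1 library at a time gave 7 to 10 lost genes of the list, the deposited lists gave 5, and the other chromosomes without chromosome 4 gave 6. Counted by library, 14 and 15 of the 25 genes had a peak in ZR_GSK343, against 23 and 23 in EV, and 7 and 9 in untreated ZR. Over every gene the same shares were 82.1% and 91% in ZR_GSK343, against 83.2% and 84.2% in EV, and 72% and 72.6% in ZR. Genes entered these counts through a peak in a ZR_GSK343 or EV list, and ZR could add none. The ZR values are held down by this rule and cannot be set against the other groups on equal terms.

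The Pou3f2 peak (chr4:22486763-22490607, covering the start site) stood at percentiles 98.2 and 98.9 in EV replicates 1 and 2 and was missing from both ZR_GSK343 lists. It was the lost region of best rank among those with no peak in either deposited ZR_GSK343 list. The Sox2 peak (chr3:34647940-34651175) was likewise missing from ZR_GSK343, against percentiles 91.4 and 85.1 in EV, and a second lost region lay 10.9 kb from the gene. The Sox1 peak (chr8:12394879-12397421) was missing from ZR_GSK343 and stood at 72.9 and 76.4 in EV. Ptprz1, a receptor-type phosphatase of radial glia, had no peak in ZR_GSK343, against 66.1 and 71.8 in EV. For these 4 genes neither ZR_GSK343 list as deposited, before any shortening, held a gene-end peak, and neither did any ZR or ZR_DMSO list.

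The other 4 lost genes had a weaker peak in the longer deposited list of ZR_GSK343 replicate 2. Tnc, the extracellular matrix protein tenascin C, stood at percentiles 57.4 and 47.3 in EV, Hopx at 52.2 and 34.3, and Slc1a3, the glial glutamate transporter GLAST, at 46 and 40. Of the 8 genes, 7 had no peak in either untreated ZR list at this length, and the exception, Tnc, stood at 8.73 and 6.68 there.

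**Figure D1:**
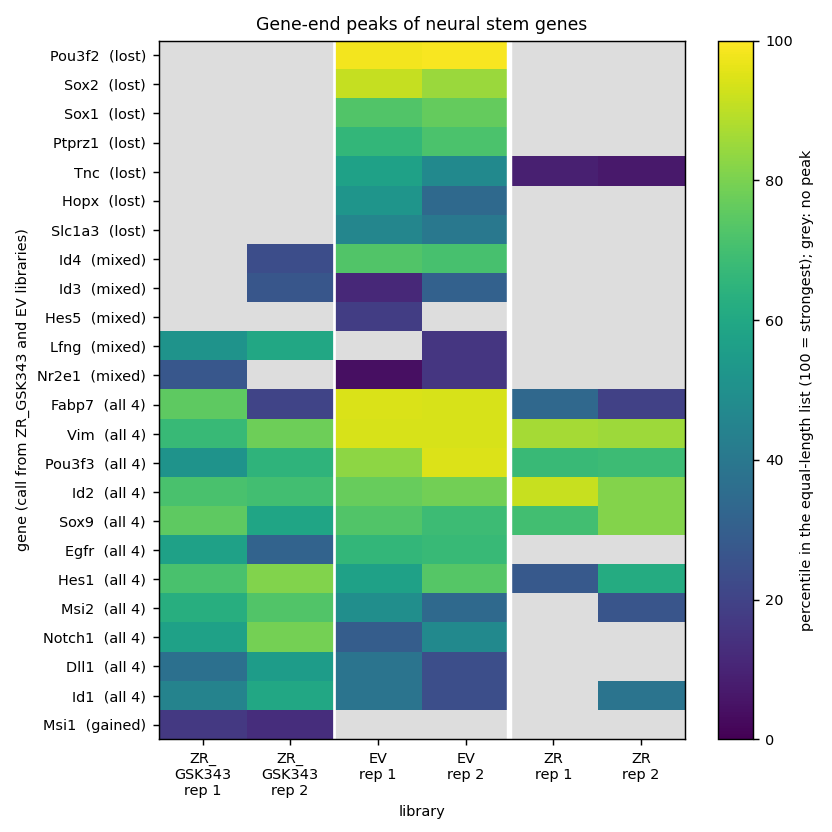
Percentile (colour, 100 the strongest) of the best gene-end peak of 24 of the 25 neural stem genes (rows) in 2 ZR_GSK343, 2 EV and 2 untreated ZR libraries (columns), with grey for no peak in the equal-length list. The 7 lost genes at the top are grey in both ZR_GSK343 columns and, apart from Tnc, in both ZR columns, while Notch1, Dll1 and Egfr have a peak in all 4 lists of the comparison and none in the equal-length ZR lists.

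Part of the list was open in both groups. Sox9, a factor of gliogenic progenitors, stood at percentiles 75.1 and 58.8 in ZR_GSK343, against 72.9 and 68.4 in EV. Hes1, a Notch target that holds progenitors undifferentiated, stood at 71.4 and 80.9 in ZR_GSK343, against 57.4 and 73.8 in EV. Vim stood lower, at 67.2 and 77.9 in ZR_GSK343, against 93.8 and 93.8 in EV, and the groups did not overlap. Fabp7, the radial glial fatty acid binding protein, also ranked lower, at 75.1 and 20.6 in ZR_GSK343, against 94.4 and 94 in EV. Pou3f3, a relative of Pou3f2, stood at 51.5 and 64.9 in ZR_GSK343, against 83 and 94.7 in EV.

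A few neural stem genes had a peak in both ZR_GSK343 lists and in neither untreated ZR list at this length, although both deposited ZR lists held a weaker peak at Notch1, Dll1 and Egfr. Notch1, the receptor, stood at 57.4 and 79.2 in ZR_GSK343, against 29.3 and 47.3 in EV. Its ligand Dll1 stood at 36.7 and 55.3 in ZR_GSK343, against 38.4 and 24 in EV. Egfr, the receptor for one of the growth factors in the medium, stood at 57.4 and 32 in ZR_GSK343, against 66.1 and 67.2 in EV. Msi1, an RNA-binding protein of neural progenitors, was the gained gene of the list, at 16.5 and 13.2 in ZR_GSK343, near the weak end of both lists. The deposited list of EV replicate 2 did hold a Msi1 peak.

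The surroundings of these genes were described by giving each region to the gene with the nearest end within 100 kb. Of 125 regions near neural stem genes, 44 (35.2%) were lost and 2 (1.6%) gained, beside 4291 of 28061 (15.3%) lost and 1992 (7.1%) gained over every gene. The 44 lost regions lay near 18 genes and 9 of them were at a gene end. Of the 44, 31 overlapped no peak in either deposited ZR_GSK343 list, and 4 and 5 had a peak in ZR replicates 1 and 2. Slc1a3 had 8 lost regions, the most of any gene, spread over chr15:8659369-8785934, and none of the 8 had a peak in ZR or ZR_DMSO at this length. The deposited lists of ZR held weaker peaks at the gene-end region, in both replicates, and at chr15:8663092-8664424, in replicate 2. The strongest of them, inside the gene at chr15:8659369-8660684, stood at percentiles 86.3 and 87.4 in EV. A region 79.2 kb from Ptprz1 (chr6:22794035-22796100) stood at 87.6 and 87.4 in EV, and a region inside Egfr (chr11:16831462-16832679) at 84 and 81 in EV, both without a peak in any deposited ZR_GSK343 list.

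Regions near glial genes were lost more often than gained, as were regions near every gene (15.3% lost and 7.1% gained). At gene ends 3.47% of every protein-coding gene with a peak lost it. Of the 14 lost regions of each list below, 2 oligodendrocyte and 0 astrocyte regions were at a gene end. Away from gene ends 23.8% of all regions inside genes and 21.8% of those between genes were lost. In the oligodendrocyte list, Olig1 and Olig2 were the 2 genes that lost a gene-end peak of 5 that had one, and 14 of 32 assigned regions (43.8%) were lost, against 2 gained. Olig1 and Olig2 lie side by side and their peaks stood at percentiles 75.6 and 66 in EV for both genes. Neither deposited ZR_GSK343 list held the Olig2 peak (chr16:91224671-91225922), whereas that of replicate 2 held one at Olig1. In total 10 of the 14 lost regions lay near this gene pair. Myrf, a factor of myelin gene expression, was gained, at 51.5 and 71.9 in ZR_GSK343, although both deposited EV lists held a weaker peak. In the astrocyte list no gene lost its gene-end peak, whereas 14 of 26 assigned regions (53.8%) were lost and 2 gained. They included 4 near Nfia, 3 near Nfib and 3 near Aldh1l1, genes of the gliogenic programme. Nfia and Nfib lie on chromosome 4, where 29.1% of all regions were lost. Nfix, of the same family, and Aldoc, a glycolytic enzyme, were gained at gene ends, and both deposited EV lists held a peak for each. Neither gained peak covered a start site of the promoter table. The nearest one lay 20037 bp from the Nfix summit and 4278 bp from the Aldoc summit. These counts rest on few genes, and neighbouring regions of 1 locus are not independent.

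Neuronal genes pointed both ways. Dlx1, a homeobox factor of inhibitory interneurons, was gained (chr2:71529020-71530203), at percentiles 67.2 and 83.8 in ZR_GSK343, but EV peaks overlapped that peak just outside the 1 kb window and the merged region was in all 4 lists, so the call rests on the window. Its neighbour Dlx2 was gained more weakly, at 16.5 and 26.7, from peaks of the 2 ZR_GSK343 libraries that did not overlap and lay in mixed regions. Neurod1, a neuronal differentiation factor, was lost, at 52.2 and 27.6 in EV.

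For 5 of the gained genes on any list, the developmental and mesenchymal factors Six2, Hoxa4, Twist2 and Snai1, and Tnf, no peak of either deposited EV list lay within 1 kb of a gene end or overlapped the stronger ZR_GSK343 peak. In the developmental list of 48 genes, 15 had a gene-end peak, of which 4 were gained (26.7%) and 1, En1, was lost (6.67%). Over every gene the shares were 5.52% gained and 3.47% lost. Six2, a homeobox factor of the kidney and of mesenchyme, stood at 36.7 and 70.4 in ZR_GSK343 and in no EV list, deposited or shortened. It stood higher in ZR, at 85.7 and 85.7, and at 75.8 and 87 in ZR_DMSO. Hoxa4 was gained at 27.2 and 59.9, with ZR at 31.2 and 29.8. Lhx2, a forebrain homeobox factor, was gained at 75.1 and 61.9 in ZR_GSK343 with no peak in ZR at this length. Both deposited EV lists and both deposited ZR lists held a weaker Lhx2 peak, and it stood at 40.7 in ZR_DMSO replicate 1. Twist2, a mesenchymal basic helix-loop-helix factor, stood at 71.4 and 34.3 in ZR_GSK343 (chr1:91800957-91801709), in no EV list, and at 8.73 in ZR replicate 1. Snai1, a zinc finger factor of epithelial-mesenchymal transition, stood at 36.7 and 29.5 in ZR_GSK343 and in no EV list. Col1a1, a fibrillar collagen, was gained at 44.7 and 13.2 in ZR_GSK343, although both deposited EV lists held a weaker peak. Kdr, the endothelial VEGF receptor, was lost, at 29.3 and 10.9 in EV, although the deposited list of ZR_GSK343 replicate 2 held a weaker peak.

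Other developmental factors were open in both groups. Irx5 stood at 44.7 and 98.1 in ZR_GSK343, against 95.7 and 94.3 in EV, and the 2 treated libraries enclosed the EV values. Foxf1 stood higher, at 67.2 and 72.7 in ZR_GSK343, against 4.27 and 24 in EV. The microglial genes Tmem119 and Spi1 were gained too. Tmem119 stood at 75.1 and 74.3 in ZR_GSK343 and at 79.9 and 79.3 in ZR. Spi1 stood at 75.1 and 64.9 in ZR_GSK343 with no peak in ZR at this length, although both deposited ZR lists held a weaker one. Each had a weaker peak in at least 1 deposited EV list. Neither gene had a start site in the promoter table, so these peaks lie at a gene end and are not shown to be promoters. Of the 10 microglial genes, 3 had any gene-end peak in the 4 lists.

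**Figure D2:**
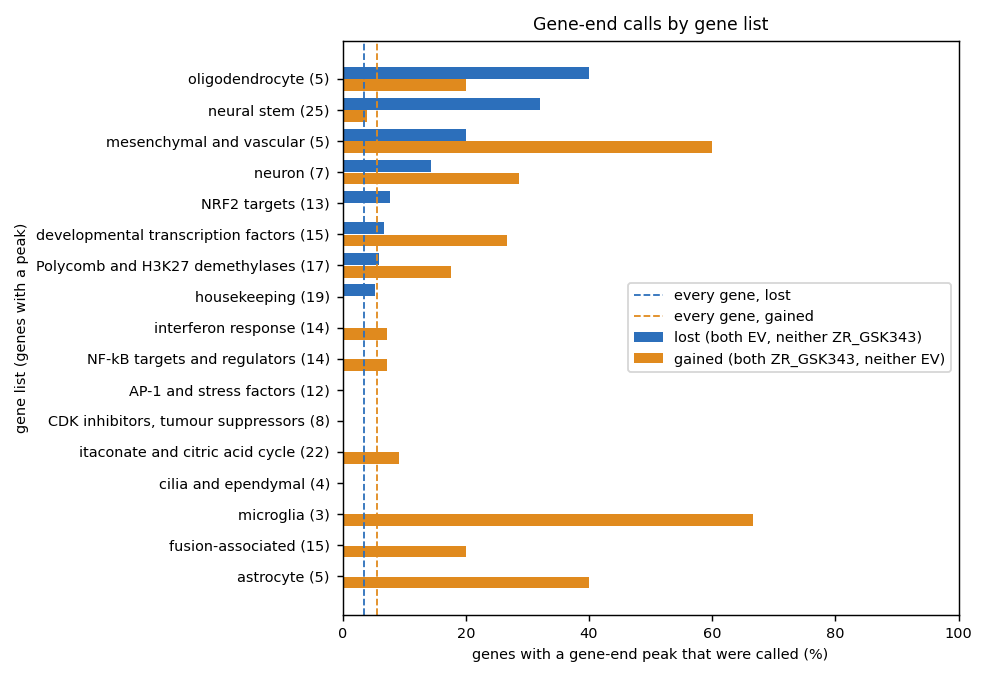
Percent of the genes with a gene-end peak that were lost (blue) or gained (orange) in ZR_GSK343 against EV, for 17 gene lists with the number of genes in parentheses. Dashed lines mark every protein-coding gene, at 3.47% lost and 5.52% gained. Neural stem genes stand at 32% lost, and the lists with the longest orange bars hold 3 to 5 genes.

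Of the 15 genes associated with the fusion that had a gene-end peak, 3 were gained (Col4a1, Lmx1b and Six2) and 0 lost. That is 20% gained, beside 5.52% gained and 3.47% lost over every gene. Col4a1, a basement membrane collagen, stood at percentiles 67.2 and 67 in ZR_GSK343, and Lmx1b, a LIM homeobox factor, at 62.6 and 44, with weaker peaks in both deposited EV lists for each. Rela, the gene of the fused NF-kB subunit, stood at 83.8 and 88.5 in ZR_GSK343, against 11.7 in EV replicate 1 and no peak in EV replicate 2. In untreated ZR it stood at 8.73 and 19.3. Ccnd1, the cyclin D1 gene, was mixed, at 38.4 in ZR_GSK343 replicate 2, against 11.7 and 10.9 in EV, and the X-linked L1cam had no gene-end peak in any deposited list.

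The NF-kB targets and regulators had 1 gained gene of 14 (7.14%), Tnf, and 0 lost, beside 5.52% gained and 3.47% lost over every gene. The Tnf peak stood at 27.2 and 47.2 in ZR_GSK343 and was in no deposited EV list. Nfkbia, which encodes the inhibitor IkB-alpha, stood at 96.1 and 90.8 in ZR_GSK343, against 81.1 and 82.3 in EV. Of the 12 AP-1 and stress genes with a peak, none was called. A peak in all 4 lists was found at 10 (83.3%), beside 69% of every gene with a peak. Among them Maff stood at 86.1 and 75.9 in ZR_GSK343, against 18.3 and 27.6 in EV, and Atf3 at 83.8 and 89.7, against 54.9 and 51.6. Jun, on chromosome 4, stood lower, at 62.6 and 80.3 in ZR_GSK343, against 96.4 and 95.6 in EV.

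The Polycomb list held the drug's target. Ezh2 was open in all 4 lists, at 78.3 and 82.1 in ZR_GSK343, against 91 and 90.5 in EV, and stood at 81.7 and 81.6 in ZR. Its paralogue Ezh1 was gained, at 44.7 and 68.7, as were the Polycomb-like proteins Phf1, at 78.3 and 67.9, and Phf19, at 36.7 and 34.3. For all 3 at least 1 deposited EV list held a weaker peak. Kdm6b, an H3K27 demethylase, was the lost gene of the list, at 54.9 and 53.6 in EV and without a gene-end peak in ZR, although its peaks lay in a mixed region that the deposited list of ZR_GSK343 replicate 2 also held. Altogether 13 of 17 genes with a peak (76.5%) had it in all 4 lists, beside 69% of every gene with a peak. Aebp2, an accessory protein of the complex, stood at 98.4 and 99.3 in ZR_GSK343, against 93.8 and 92.7 in EV.

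Cdkn2a and Cdkn2b are classical Polycomb targets. Of the 8 CDK inhibitor and tumour suppressor genes with a peak, Rb1 and Trp53 among them, none was called. A peak in all 4 lists was found at 7 (87.5%), beside 69% of every gene with a peak. Of these 7, 5 ranked lower and 2 higher in both ZR_GSK343 lists than in both EV lists. Among all 7509 genes with a peak in all 4 lists, 27.8% ranked lower and 37.5% higher. Cdkn2a stood at 36.7 and 67 in ZR_GSK343, against 79.2 and 88.2 in EV. Cdkn2b stood at 36.7 and 75.2, against 88.1 and 90.5 in EV, and Cdkn2c at 16.5 and 75.2, against 88.7 and 81.7 in EV. These 3 genes lie on chromosome 4. Cdkn2d, on chromosome 9, also ranked lower, at 62.6 and 76.6, against 96.1 and 93.3 in EV, whereas Rb1 ranked higher, at 89.8 and 89.7, against 81.1 and 73.8 in EV.

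Among metabolic, stress and housekeeping genes few were called. In the itaconate and citric acid cycle list 2 of 22 genes (9.09%) were gained, Dlst and Idh3b, and 0 lost. Both deposited EV lists held a weaker peak at each of these 2. Of the 22 genes, 15 (68.2%) had a peak in all 4 lists. Over every gene with a peak, 5.52% gained it, 3.47% lost it and 69% had it in all 4 lists. Acod1, which makes itaconate, had no peak at this length in ZR_GSK343 or EV, and replicate 2 of each held one in its deposited list. In the NRF2 list 1 of 13 genes (7.69%) was lost, Nqo1, a quinone reductase, at 57.4 and 53.6 in EV. A deposited ZR_GSK343 list did hold a weaker Nqo1 peak, and untreated ZR had one at this length in at least 1 library. Interferon genes had 1 gained of 14 (7.14%), Ifit1, at which at least 1 deposited EV list held a weaker peak. The housekeeping list had 1 lost gene of 19, Actb, but this call rests on the window: peaks of both deposited ZR_GSK343 lists overlapped the EV peak (chr5:142905101-142907003) inside the gene, and the merged region was in all 4 lists. Of the 4 cilia genes with a peak none was called.

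Over all regions, 2346 of 33107 (7.09%) were gained, 5691 (17.2%) lost and 8375 (25.3%) in all 4 lists. Of the gained regions 24.9% lay at a gene end, as did 7.63% of the lost ones and 78.4% of those in all 4 lists. By location, 4.32% of gene-end regions were lost, against 23.8% of those inside genes and 21.8% of those between genes, while 5.82%, 6.14% and 9.04% of the same classes were gained. Of the lost regions, 4371 overlapped no peak in either deposited ZR_GSK343 list. Of the gained regions, 987 overlapped none in either deposited EV list. The requirement that both replicates show a call bore on these counts, since ZR_GSK343 replicate 2 alone gave 6839 gained and 5911 lost regions at the same list length, and replicate 1 alone 8240 and 7226.

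At equal length few of the lost regions had a peak in the other fusion libraries. A peak was found at 10.9% and 10.7% of them in ZR replicates 1 and 2, and at 3.76% and 6.61% in ZR_DMSO, and at 30.7% and 30.8% in the longer deposited ZR lists and 3.76% and 7.52% in those of ZR_DMSO. By contrast 89.1% and 89.7% of the regions in all 4 lists had one in ZR, and 60.9% and 77.3% in ZR_DMSO. Gained regions had a peak in 40.2% and 39.2% of cases in ZR, and in 41.5% and 55.2% in ZR_DMSO. As deposited these shares were 82.3% and 82.4% in ZR and 41.5% and 58.1% in ZR_DMSO, so that the absences from ZR given next hold for the shortened lists. Of the 2346 gained regions, 847 (36.1%) had a peak in both ZR lists and 1331 (56.7%) in neither. Of those 1331, 393 had a peak in both ZR_DMSO lists and 672 in neither. Of the 5691 lost regions, 4957 (87.1%) had a peak in neither ZR list and 494 (8.68%) in both.

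**Figure D3:**
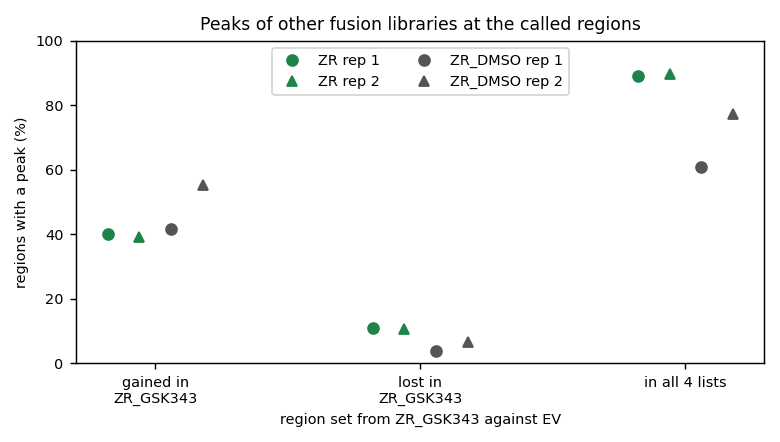
Percent of the regions gained, lost or present in all 4 lists of ZR_GSK343 against EV that had a peak in 2 untreated ZR and 2 ZR_DMSO libraries, which took no part in the calls; each point is a library. Lost regions stand between 3.76% and 10.9%, and gained regions between 39.2% and 55.2%.

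The converse question, how much of the fusion's own change was present after inhibition, was put to regions fixed in the ZR and EV libraries at 18324 peaks, in which ZR_GSK343 took no part. ZR against EV gave 6111 regions with a peak in both EV and neither ZR list (fusion-lost), 6656 with the opposite pattern (fusion-gained) and 8701 in all 4. This comparison and ZR_GSK343 against EV share the EV libraries, so their calls are not independent. Of the fusion-lost regions, 12.6% and 16.5% had a peak in ZR_GSK343, against 2.19% and 4.65% in ZR_DMSO (means 14.6 ± 2.72% and 3.42 ± 1.74%, SD, n = 2 each). Neither ZR_GSK343 library had a peak at 4957 (81.1%) of them. These are the same 4957 regions as the lost regions with a peak in neither ZR list above. The 2 percentages are therefore not separate results, and both rest on the shared EV lists. Of the fusion-gained regions, 15.2% and 43.7% had a peak in ZR_GSK343, against 35.5% and 57.8% in ZR_DMSO, and the ranges overlap. In the deposited lists the shares were 15.2% and 80.8% in ZR_GSK343, against 35.5% and 60.7% in ZR_DMSO. The wide gap between the 2 ZR_GSK343 values means that either library alone sets a different share. The shared regions, which measure how well a library finds open chromatin of both cell types, had a peak in 83.5% and 93.8% of cases in ZR_GSK343, against 63.1% and 80.6% in ZR_DMSO. ZR_DMSO replicate 1 enters with its whole list of 11806 peaks, shorter than the others. The ZR_DMSO peaks used were also narrower, with medians of 229 and 199 bp, against 333 and 681 bp in ZR_GSK343. They covered 3.53 and 4.73 Mb, against 8.14 and 14.1 Mb in ZR_GSK343. Since 1 shared bp counts as a peak, width bears on every share of ZR_DMSO against ZR_GSK343, and its part was not tested.

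Within the fusion-lost set the shares were higher at gene ends than elsewhere. Of 1080 fusion-lost regions at gene ends, 47.4% and 60.1% had a peak in ZR_GSK343, against 4.63% and 11.6% in ZR_DMSO. Inside genes the shares were 6.32% and 7.73% in ZR_GSK343, against 1.76% and 3.2% in ZR_DMSO, and between genes 3.97% and 6.48%, against 1.58% and 3.12%. At gene-end regions shared by ZR and EV they were 94% and 99.2% in ZR_GSK343, against 65.5% and 83.3% in ZR_DMSO. The ZR_DMSO peaks were narrower, as given above, and the part of this in the contrasts with ZR_DMSO was not tested. The ZR lists as deposited bear on the higher shares at gene ends. A weaker ZR peak, below the 18324 strongest, lay at 74.6% and 73.2% of the gene-end regions in ZR replicates 1 and 2. Of the 234 gene-end regions with no ZR peak in either deposited list, 9.4% and 3.85% had a peak in ZR_GSK343 (6.62 ± 3.93%, SD, n = 2), against 0% and 0.427% in ZR_DMSO. Away from gene ends the regions with no deposited ZR peak had one in at most 0.841% of cases in either ZR_GSK343 library. Gene-end peaks also made up a larger share of the ZR_GSK343 lists (45.7% and 48.8%) than of the ZR lists (38.2% and 38.5%), with 44.1% and 44.4% in EV, and the part of this difference in the result was not tested.

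**Figure D4:**
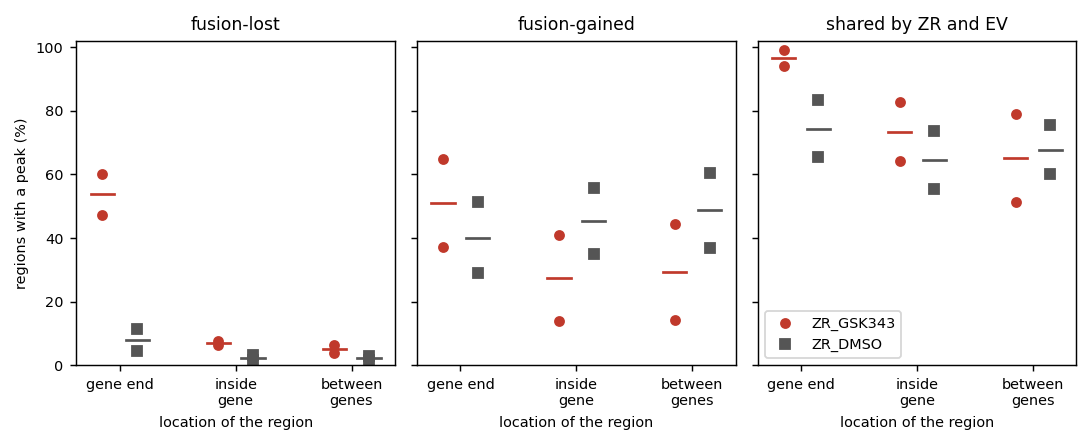
Percent of fusion-lost, fusion-gained and shared regions, fixed in ZR and EV, with a peak in each ZR_GSK343 (red circles) and ZR_DMSO (grey squares) library, by location; bars are means of 2 libraries. Fusion-lost regions at gene ends stand at 47.4% and 60.1% in ZR_GSK343, and those elsewhere at 3.97% to 7.73%.

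The lost regions of best rank that had no peak in either deposited ZR_GSK343 list were mostly distal. After Pou3f2 came a region inside Fbxl17 and the gene model Gm41607, at percentiles 97.6 and 96.8 in EV, and one 107 kb from Trps1, a GATA-type repressor of skeletal development, at 96.6 and 96.7 (chr15:50997108-50998088). Next were regions inside the integrin gene Itga2, at 96.5 and 96.8, and inside Diaph3, a formin, at 95.5 and 98. The other 5 lay near Astn2, Cenpc1, Tmtc2 and Lmo4 and inside Nkain3. None of these 10 had a peak in ZR or ZR_DMSO at this length, although at least 1 deposited ZR list held one at those of Trps1, Itga2, Diaph3 and Cenpc1, and 3 of them, those of Pou3f2, Astn2 and Nkain3, lie on chromosome 4.

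The gained regions of best rank with no deposited EV peak were shared with other fusion libraries in most cases. A 205 bp region far from any gene (chr1:122357131-122357335, 789 kb from Ddx18) stood at 99.4 and 98.3 in ZR_GSK343, at 99.5 in ZR_DMSO replicate 2 and was absent from ZR. The gene end of Man1a, a Golgi mannosidase, stood at 92.5 and 94.7 in ZR_GSK343 and at 83.2 and 86.6 in ZR. That of Jph1, a junctophilin, stood at 91.3 and 96.5 in ZR_GSK343 and at 88.5 and 91.3 in ZR. A region inside the phosphatase gene Ptpre (chr7:135604807-135605869) stood at 89.8 and 92.6 in ZR_GSK343, at 99 and 98.6 in ZR and at 97.9 and 95 in ZR_DMSO. The remaining 6 lay near Cd200, Gdf3, Bcas1 and Speer4f1 and inside Prdm11 and Plcb4, and of these 5 had a peak in both ZR lists, the exception being the 165 bp region near Cd200.

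Gained regions piled up at a few loci. Zfp970 had 34 within chr2:177366294-177575689, Gm21119 had 31 within chr8:20607151-20710823, Gas8 had 22, Gm40469 had 17, Gm14410 had 14 and Itln1 had 10. Most of these regions had a peak in ZR_DMSO and few had one in untreated ZR. At Zfp970, 30 and 32 of the 34 regions had a peak in ZR_DMSO and 2 and 3 in ZR, and at Gm21119, 30 and 29 of 31 in ZR_DMSO and 0 and 0 in ZR. At Gas8 the counts were 21 and 22 of 22 in ZR_DMSO and 0 and 0 in ZR. Zfp970 and Gm14410 lie in a cluster of zinc finger genes on chromosome 2, and near-identical copies make the placing of reads there uncertain. Without the regions given to these 6 genes, 2218 of 32794 regions (6.76%) were gained. The 6 genes with most lost regions were Slc1a3 with 8, Celf4 and Kazn with 7 each, and Adamts3, Apba2 and Lifr with 6 each, and at this length these regions had no peak in ZR apart from 1 near Celf4.

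Chromosome 4 stood apart from the rest. There 1.46% of 1434 regions were gained and 29.1% lost, and the regions in all 4 lists had median percentiles of 44.7 and 60.9 in ZR_GSK343, against 76.9 and 77.2 in EV. Over chromosomes 1 to 19 the medians were 71.4 and 76.6 in ZR_GSK343, against 71.4 and 72.8 in EV. On chromosome 4, 67.2% of those regions ranked lower and 10.2% higher in both ZR_GSK343 than in both EV lists, beside 28.5% lower and 36.6% higher over all chromosomes. It held 2.49% and 4.1% of the ZR_GSK343 peaks used, 3.08% and 3.24% of those of ZR and 1.97% and 2.19% of those of ZR_DMSO, against 6.35% and 6.22% of those of EV, so that its share was lower in all 6 fusion libraries looked up than in both EV libraries. Copy number was not measured here. With chromosome 4 left out, 16.7% of the regions on the other chromosomes were lost and 7.34% gained. The opposite side was less marked: chromosome 19 had 11.1% gained and 12.9% lost, and chromosome 2 had 10.6% and 12.2%.

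**Figure D5:**
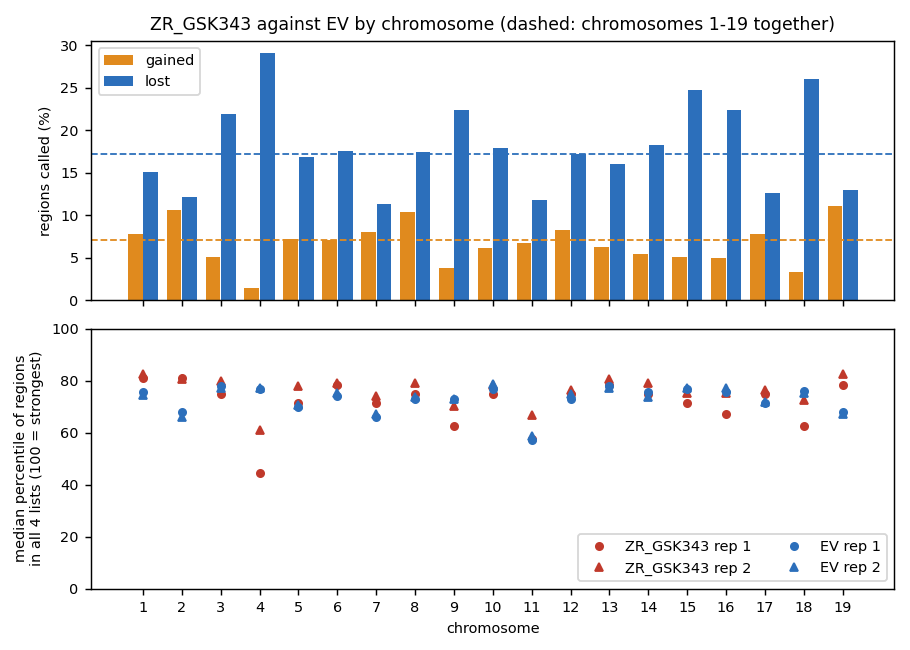
Upper panel, percent of regions gained (orange) and lost (blue) in ZR_GSK343 against EV on each of chromosomes 1 to 19, with dashed lines for all together; lower panel, median percentile of the regions in all 4 lists in each library. Chromosome 4 has the highest share lost, 29.1%, the lowest share gained, 1.46%, and the lowest ZR_GSK343 medians, 44.7 and 60.9.

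Motif shares were counted in the promoters of the gained and lost sets, as a description with no test. Among RefSeq promoters (300 bases, from 250 before to 50 after the start), 481 of 10163 with a peak were gained (4.73%) and 386 lost (3.8%). The octamer ATGCAAAT, the POU motif, stood in 1.04% of gained promoters (5) and 3.63% of lost ones (14). It stood in 1.67% of every promoter and 1.34% of those with a peak in all 4 lists. The nuclear factor I site TTGGCA stood in 9.15% of gained and 15.8% of lost promoters, beside 13.1% of every promoter and 9.3% of all-4-list promoters. The SOX motif ACAANG stood in 30.4% of gained and 38.3% of lost promoters, and in 37.6% of every promoter and 28.8% of all-4-list promoters. The GC box GGGCGG stood in 67.6% of gained and 49.7% of lost promoters, beside 47% of every promoter and 76% of those with a peak in all 4 lists. Base composition moved with these shares, since GC content was 63.1% in gained, 57.8% in lost, 64.3% in all-4-list and 56.5% in every promoter, and its part in them was not tested. The NF-kB motif stood in 1 gained and 0 lost promoters, beside 0.433% of every promoter and 0.349% of all-4-list promoters. The AP-1 motif TGANTCA stood in 4.57% of gained and 3.37% of lost promoters, beside 7.06% of every promoter and 3.47% of all-4-list promoters.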

How the data were processed

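ATAC-seq peak lists of 8 libraries on mm10 were used; the lists of the other 6 libraries were not used here. The submitters' processing notes name BWA, SAMtools and Picard, with no versions. Names of the deposited peaks show that MACS2 was run library by library, with settings not stated there. A deposited peak carries the authors' score, their fold enrichment (a ratio over local background) and their −log10 p-value and q-value. These were used only to rank and describe peaks within a list. The lists give peaks without reads, so depth is unknown and values carry no counting interval.

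Lists were cut to 18324 peaks by −log10 q, with ties kept by position, merged, and a peak sharing 1 bp with a region counted as present. Many peaks share a q value (137 to 239 distinct values in the 4 lists), so percentiles are means over ties; at the cut, 74 of 1560 tied peaks were kept in EV replicate 1, 603 of 1096 in EV replicate 2, 275 of 1053 in ZR_GSK343 replicate 2 and all 482 in ZR_GSK343 replicate 1. A random order of ties is among the alternatives. Genes came from the RefSeq table of GRCm38.p6, which has no strand, so either gene end counted; promoters and strand came from the RefSeq promoter table. The 17 lists hold 329 genes, of which 2 had no match and 12 lie on chromosome X. A name such as neural stem is that of its list.

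Names follow a rule: per list, at most 4 gained and 4 lost genes, ordered by the weaker of their ranks; in each direction, the 10 best regions, by the weaker rank, that no deposited list of the other group overlaps; the 6 genes with most gained and most lost regions, and Acod1, Rela, Ezh2, Ccnd1 and L1cam. The other genes named, among them Tnc, Hopx, Slc1a3 and the genes open in both groups, were chosen after their values were seen, and some results under the rule are left out of the text. The members and lists were chosen with earlier results of these data known. The peak-number ratio was compared by a two-sided exact permutation test; other values are descriptions. The code was tested on simulated lists. Alternatives covered list length, threshold, ranking, peak width, overlap, chromosomes, windows, ties and each library left out. Python 3.11.15, pandas 2.3.3 and scipy 1.17.1 were used.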

Additional observations from a re-analysis of the deposited data

How the results depend on the processing

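Of 154 recomputed values, 121 met the rule set for their kind and 33 did not. A count had to stay within 1.5 times the value reported, and a share within 1 SD of it. The peak-number ratio had only to stay on the same side of 1, so that 0.481 met the rule. Ranking by fold gave the same values throughout and adds no separate check. The fusion-gained share had an SD of 20.2 on a mean of 29.5%, so that even 14.5% and 15.2% met the rule. With the lists as deposited, 12603 regions were lost, 245 genes gained and 394 lost a gene-end peak, 5 neural stem genes lost and 0 gained one, while fusion-lost regions had a ZR_GSK343 peak in 4.8% of cases, at gene ends in 21.2% and elsewhere in 3.67%. At a −log10 q of at least 5 these values were 12154 lost regions, 212 gained and 438 lost genes, 6 lost neural stem genes, 3.98%, 20.1% and 2.79%. Where a peak had to cover 50% of a region, 1383 regions were gained and 3460 were in all 4 lists, and the fusion-lost shares were 9.11%, 33.6% and 3.45%. Leaving out 1 library at a time gave 2659 to 15897 gained regions, 7226 to 12406 lost regions, 8600 to 14906 regions in all lists, 796 to 891 genes gaining and 465 to 1078 losing a gene-end peak, 7 to 10 neural stem genes losing one, fusion-lost shares of 8.82% to 14.7% in all, 39.7% to 53.1% at gene ends and 5.17% to 6.76% elsewhere, a fusion-gained share of 15.2% to 50.1% and a peak-number ratio of 0.481 to 1.45. The upper ends for regions gained, lost and in all lists, for the fusion-gained share and for the ratio came without ZR_GSK343 replicate 1, which also lengthens the lists. With the main length kept, 6839 regions and 1043 genes were gained without it (added after seeing the data), against 2346 and 600 with it. The peak-number ratio was 0.966 with all libraries, 1.45 without ZR_GSK343 replicate 1 and 1.08 without EV replicate 2. With ties at the end of a list in random order (added after seeing the data), 2336 regions were gained and 5681 lost. Pairing libraries by replicate number gave a ratio of 0.84 (exact p = 1). The deviations of same-numbered libraries had a correlation of 0.0202 over 8375 regions, and no block was used. That value cannot show whether same-numbered libraries were prepared together, since the 2 ZR_GSK343 lists also differ much in length.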
